A study of Mus musculus with 6 samples.

Results

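The 47 genes described here encode the fibroblast growth factors (FGFs), their receptors, the kinases of the ERK cascade that the receptors switch on, and the transcription factors and inhibitors that this cascade induces. They were taken by symbol, from the probe sets of the deposited table that named exactly 1 gene of any kind. Those naming a gene of these families were kept, with 1 probe set per symbol, that with the highest mean log2 intensity. All 47 symbols of the families were found among the 20200 symbols tested. FGF ligands outside the cell bind receptor tyrosine kinases with heparan sulphate as a cofactor, the docking protein FRS2 passes the signal to RAS and RAF, and the kinases MEK and ERK carry it to the nucleus. There ERK induces ETS factors of the ETV group together with its own inhibitors, the Sprouty and SPRED proteins and the dual-specificity phosphatases, so that the level of these transcripts is widely read as a record of pathway activity. EpiSCs, or epiblast stem cells, are pluripotent cells in the primed state of the mouse epiblast after implantation, and FGF together with Activin keeps them in culture.

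The study asked what such cells express once Dicer, the enzyme that makes mature microRNAs from their precursors, is lost. The control group was Dicer fx/fx EpiSCs, with floxed alleles, kept without tamoxifen. The deleted group, labelled Dicer -/-, was Dicer fx/fx EpiSCs given 0.3 µM 4-OH-tamoxifen for 3 days and left 2 days without it, with RNA taken on day 5, and its controls had been plated and split alongside. All cells grew on FCS-coated plates in N2B29 medium that held Activin at 20 ng/ml together with bFGF, the protein FGF2, at 12 ng/ml, so every sample received an FGF ligand from outside. Each of 3 experiments, numbered 18, 19 and 20, held 1 control and 1 deleted sample, and each sample was measured on 1 Affymetrix mouse gene array. Exposure to tamoxifen went with deletion in every experiment and cannot be told apart from it. The recombinase that tamoxifen acts on, and whether the cells are a single clone, are not given in the sources used here.

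The median array intensity lay between 247.7 and 260.1. Dicer1 was at 1836, 2079 and 2098 in the controls of experiments 18, 19 and 20 and at 601.6, 553.1 and 645.4 in the deleted samples, 29.9% of the control signal on average (log2 difference -1.74 ± 0.09, limma adjusted p = 0.045, or 0.066 with the experiment as a block), so every sample followed its label. That call was also lost when any single array was left out. All 8 markers of pluripotent and primed epiblast cells, among them Pou5f1, Otx2 and Dnmt3b, lay at or above the median level of all symbols. Of 6 fibroblast markers 3 did, with a summed intensity of 1636 to 2027 in controls against 1677 to 1868 after deletion, and of 5 trophoblast markers 0 did, with 827 to 1020 against 772 to 977. Of 6 neural markers 4 did, with 3754 to 5656 against 4418 to 6928. No marker was listed at 0, but the lowest intensity of any probe set was 27.23, so this does not show that a marker was expressed. The control of experiment 20 stood apart. Of 10 primitive streak and mesendoderm markers, 9 were higher there than the mean of controls 18 and 19 by 1 log2 unit or more, with Mesp1 the exception. The summed intensity of the 10 was 3579, 6675 and 37132 in controls 18, 19 and 20 and 4758, 9413 and 32941 in the deleted samples. In bulk samples of this kind, fewer cells of a type and less RNA per cell cannot be told apart.

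Deletion was compared with control over all symbols with limma, and a gene was called at an adjusted p under 0.05. Unless said otherwise, a difference is deleted minus control on the log2 scale, with the SE of this fit and n = 3 arrays per group. Group was the only term of the fit, so its SE and p ignore the pairing and also hold the spread between experiments. The SE of Spred3, for example, was 0.46, and 0.06 with the experiment as a block. A gene is called dim where its mean lay below the median level of all symbols. By limma 0 of the 47 genes were called higher or lower, while 0 of all symbols (0%) were called higher and 1 (0.00495%), Dicer1, lower. The lowest adjusted p of a member was 0.825. In an exact permutation test 3 arrays against 3 cannot give a p below 0.1, whatever the gene. At an unadjusted p under 0.05, limma gave 1 member higher, Etv1, against 2.22% of all symbols, and 4 lower, Dusp7, Fgf12, Fgf18 and Fgfr4, against 3.77%. With the experiment as a block, which sets each deleted sample against the control of its own experiment, no member was called either and the lowest adjusted p was 0.150. The unadjusted counts then were 4 higher (Dusp5, Etv1, Fgf14, Spred1), 8.51% of members against 8.04% of all symbols, and 9 lower (Dusp7, Etv4, Fgf3, Fgf4, Fgf9, Fgf11, Fgf18, Fgfr4, Spry3), 19.1% against 9.05%.

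Within experiments, 7 members were higher after deletion in all 3 and 12 were lower in all 3, leaving 28 of mixed sign. These shares of 14.9% and 25.5% lay near those of all symbols, 15.2% and 28.2%, so the counts of the set were close to those of the whole array. Dim probe sets leaned downwards in general, with 34.8% of symbols below the median level lower in all 3 and 7.1% higher. Of the 18 members below that level, 7 were lower in all 3 and 1, Fgf14, was higher. Among symbols at or above the median level 21.6% were lower and 23.3% higher in all 3, and of the 29 members there 5 were lower and 6 higher. A steady difference of 0.3 or more in the mean was found in 2 members on the higher side, Etv1 and Dusp4 (4.69% of all symbols), and in 3 on the lower side, Fgf4, Dusp7 and Spry3 (2%). The deleted arrays lay wholly above the control arrays for 1 member, Etv1 (3.26% of all symbols), and wholly below them for 5, Dusp7, Fgf9, Fgf12, Fgf18 and Fgfr4 (9.93%).

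**Figure D1:**
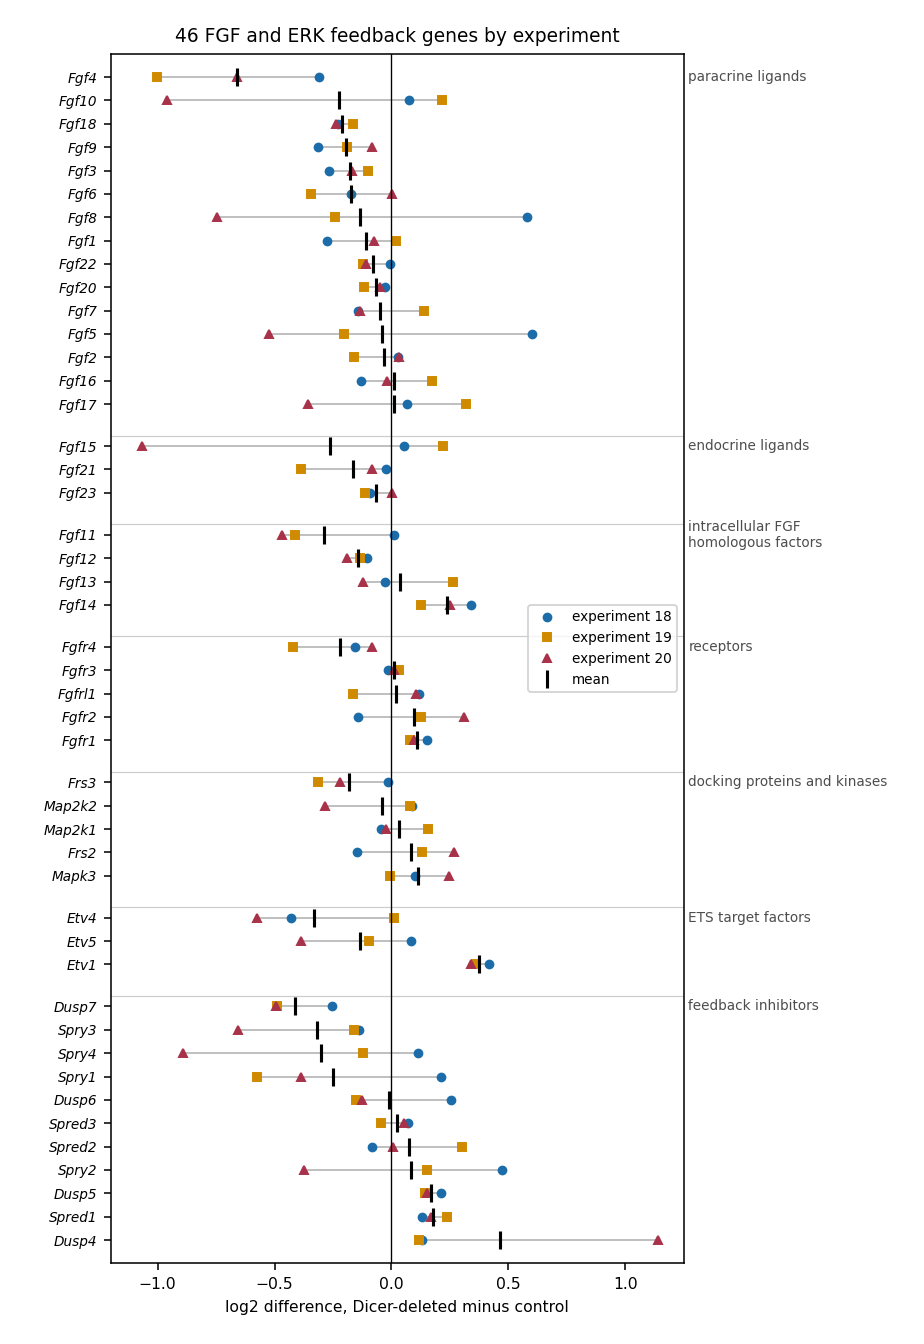
Log2 difference of deleted minus control (horizontal axis) for 46 of the 47 genes, grouped by role, with 1 symbol per experiment and a black bar at the mean. The 3 symbols of Etv1 lie together between 0.34 and 0.42 and those of Dusp7 between -0.50 and -0.25, whereas Fgf5, Fgf8 and Spry4 lie on both sides of 0.

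The secreted ligands that act on neighbouring cells were lower in mean in 13 of 15 cases, against 12568 of all 20200 symbols. Their median difference was -0.11 against -0.04 over all symbols. Of these 15, 10 lay below the median level, where 7543 of 10100 symbols were lower in mean and the median was -0.05. Of the 15, 0 were higher in all 3 experiments, against 15.2% of all symbols and 7.1% of those below the median level. Fgf4, the ligand that pluripotent cells make themselves and that drives ERK in the early embryo, had the largest mean difference of the 47 in size. Its intensity was 1198, 1609 and 500.5 in controls 18, 19 and 20 and 966, 803 and 317 in the deleted samples. It was thus lower after deletion every time, while the groups overlapped because both samples of experiment 20 were the lowest of their group. The mean difference was -0.66 ± 0.60 (adjusted p = 0.931), a signal 1.58-fold lower, and the 3 differences within experiments had an SD of 0.35. Blocking on the experiment gave an SE of 0.14 and an adjusted p of 0.169. Leaving out single arrays of experiment 20 moved the mean difference to -1.15 without the control and to -0.17 without the deleted sample, and it was -0.66 without both.

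The window around the start of Fgf4 is shown because no member differed more in mean. It is the RefSeq promoter window of build GRCm38.p6, chr7:144861136-144861435 on the plus strand, 250 bases before to 50 after the start. Capitals mark GGGCGG, the GC box that SP factors bind, and would also mark GGAA, the core of ETS sites, each on either strand. The GC box occurred 2 times and GGAA 0 times, while 35.7% and 96% of the 32851 windows of that table hold them at least once.
Fgf4: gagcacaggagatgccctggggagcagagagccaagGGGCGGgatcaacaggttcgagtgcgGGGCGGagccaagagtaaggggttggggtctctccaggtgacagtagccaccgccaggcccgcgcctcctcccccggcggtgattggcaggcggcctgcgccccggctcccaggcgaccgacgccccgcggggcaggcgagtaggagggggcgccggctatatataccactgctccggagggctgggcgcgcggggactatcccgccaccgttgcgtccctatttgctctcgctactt

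Fgf3 and Fgf15 are the direct neighbours of Fgf4 on chromosome 7 in the RefSeq gene order of that build, with 0 protein-coding genes between them, and their values did not run alike. Fgf3, an embryonic ligand, was dim. Its controls lay at 159, 139 and 159.9 and its deleted samples at 132, 129 and 142, and it was lower in all 3 experiments (-0.18 ± 0.08, adjusted p = 0.833). Fgf15, an endocrine ligand, was at 239, 842 and 427 in controls 18, 19 and 20 and at 248, 981 and 204 in the deleted samples. It was higher after deletion in experiments 18 and 19 and lower in experiment 20, and the spread between experiments exceeded every difference within one (mean -0.26 ± 0.74, adjusted p = 0.993).

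Fgf5, the ligand gene that marks the primed epiblast, was at 1556, 3884 and 5132 in controls 18, 19 and 20. In the deleted samples it was at 2358, 3372 and 3572. It was therefore higher after deletion in experiment 18 and lower in the other 2, and the mean difference was -0.04 ± 0.47 (adjusted p = 0.998). Fgf8, which the primitive streak expresses and whose product cells need there to migrate, had the same order, with 491, 986 and 1878 in controls and 733, 834 and 1121 in deleted samples. Its differences were 0.58, -0.24 and -0.74 in experiments 18, 19 and 20 and its mean -0.14 ± 0.50 (adjusted p = 0.995). The controls spanned 3.30-fold for Fgf5 and 3.83-fold for Fgf8, and the deleted samples 1.52-fold and 1.53-fold. Neither gene had a direction common to the experiments.

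Fgf10, a dim ligand gene of organ buds, was at 112, 144 and 407 in controls 18, 19 and 20 and at 118, 167 and 209 in deleted samples, with differences of 0.07, 0.22 and -0.96. Its mean difference of -0.22 ± 0.52 (adjusted p = 0.988) took its sign from experiment 20. Fgf18, a ligand of bone and lung development, differed by about the same amount in each experiment. It was at 387, 392 and 385 in controls and at 329.5, 349 and 326.5 in deleted samples, so that the groups did not overlap (-0.21 ± 0.06, adjusted p = 0.825). Fgf9, a ligand of the embryonic mesoderm and gonad, was dim. It was at 218, 219 and 223 in controls and at 175.5, 192 and 211 in deleted samples, again with no overlap (-0.19 ± 0.08, adjusted p = 0.832). Fgf2, whose protein was in the medium, was dim, at 85.7 to 97.3 over all 6 arrays, with a difference of -0.03 ± 0.07 (adjusted p = 0.987). The remaining ligands of this kind were Fgf1, Fgf6, Fgf7, Fgf16, Fgf17, Fgf20 and Fgf22. Their differences lay between -0.17 for Fgf6 and 0.01 for Fgf17, and only Fgf20 and Fgf22 kept one sign, lower, in all 3 experiments.

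Of the other 2 endocrine ligands, which act through Klotho coreceptors at a distance, Fgf21 differed by -0.16 ± 0.13 and Fgf23 by -0.07 ± 0.06, both dim. The intracellular FGF homologous factors are not secreted and modulate sodium channels in neurons. Fgf11 was at 631, 426.5 and 248 in controls 18, 19 and 20 and at 635, 321 and 179.5 in deleted samples. It was nearly level in experiment 18, by 0.01, and lower in the other 2 (-0.29 ± 0.55, adjusted p = 0.984). Fgf12 was dim and lay between 81.4 and 86.9 in controls and between 75.0 and 76.1 in deleted samples, without overlap (-0.14 ± 0.06, adjusted p = 0.832), at a level where small negative differences were common on the array. Fgf14 was the 1 ligand homologue higher in all 3 experiments (0.24 ± 0.28, adjusted p = 0.951), and Fgf13 differed by 0.04 ± 0.12.

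The 5 receptors had a median difference of 0.02. Fgfr1, the main FGF receptor of the epiblast, was at 3562, 3782 and 2939 in controls 18, 19 and 20 and at 3962, 3993 and 3142 in deleted samples. It was higher after deletion in each experiment, by 0.15, 0.08 and 0.10, which is less than the range between controls (mean 0.11 ± 0.14, adjusted p = 0.958). Fgfr2, the receptor of extraembryonic and epithelial tissues, was at 336, 408 and 499.5 in controls and at 304, 445 and 619 in deleted samples, lower in experiment 18 and higher in the other 2 (0.10 ± 0.29, adjusted p = 0.993). Fgfr3 differed by 0.01 ± 0.08 and the decoy-like receptor Fgfrl1, which lacks a kinase, by 0.02 ± 0.21. Fgfr4 was dim. It was at 220.0, 243 and 202 in controls and at 197, 181 and 190.3 in deleted samples, lower in all 3 and without overlap (-0.22 ± 0.09, adjusted p = 0.832).

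The 6 docking protein and kinase genes between receptor and nucleus had a median difference of 0.02 and differences from -0.18 to 0.11. Mapk3, which encodes the kinase ERK1, was at 4987, 4155 and 3956 in controls 18, 19 and 20 and at 5352, 4138 and 4691 in deleted samples, without a common sign (0.11 ± 0.13, adjusted p = 0.951). The MEK genes Map2k1 and Map2k2 differed by 0.03 ± 0.10 and -0.04 ± 0.28, the docking protein gene Frs2 by 0.08 ± 0.12 and its relative Frs3 by -0.18 ± 0.12. Frs3 was the 1 of these 6 that was lower in all 3 experiments, with -0.01, -0.31 and -0.22.

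The 3 ETS factors of the group, which are standard transcriptional targets of FGF and ERK, did not share a sign, and none was called. Etv1 was at 1516, 1595 and 1824 in controls 18, 19 and 20 and at 2027, 2049 and 2310 in deleted samples. Every deleted sample exceeded every control, and the differences of 0.42, 0.36 and 0.34 had an SD of 0.04. The mean was 0.37 ± 0.10, a 1.30-fold higher signal, with the lowest unadjusted p of the 47 but an adjusted p of 0.825, and 0.150 with the experiment as a block. Etv4 was at 623, 352 and 1107 in controls and at 463, 355 and 742 in deleted samples, lower after deletion in experiments 18 and 20 and level in experiment 19 (-0.33 ± 0.48, adjusted p = 0.969). Without the control of experiment 20 alone its mean difference turned to 0.08. Etv5 was at 4739, 4520 and 2791 in controls and at 5014, 4232 and 2136 in deleted samples, with its lowest values in experiment 20, where Etv4 had its highest (-0.13 ± 0.38, adjusted p = 0.993).

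The windows at the 2 starts of Etv1 that the RefSeq table holds are shown because Etv1 was the 1 member whose deleted samples all lay above the controls. They are chr12:38779832-38780131 and chr12:38783461-38783760, both on the plus strand of GRCm38.p6, with the same 2 motifs in capitals. The upstream window held GGAA or its complement 5 times and the downstream one 1 time, and neither held the GC box. Which start these cells used is not known from the array.
Etv1, upstream start: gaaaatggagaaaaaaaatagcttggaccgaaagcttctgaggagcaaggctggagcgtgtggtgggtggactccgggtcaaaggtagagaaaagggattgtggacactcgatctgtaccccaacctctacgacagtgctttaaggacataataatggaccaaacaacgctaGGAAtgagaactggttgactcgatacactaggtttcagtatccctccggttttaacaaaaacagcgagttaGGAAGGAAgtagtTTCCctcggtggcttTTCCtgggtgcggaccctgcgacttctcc
Etv1, downstream start: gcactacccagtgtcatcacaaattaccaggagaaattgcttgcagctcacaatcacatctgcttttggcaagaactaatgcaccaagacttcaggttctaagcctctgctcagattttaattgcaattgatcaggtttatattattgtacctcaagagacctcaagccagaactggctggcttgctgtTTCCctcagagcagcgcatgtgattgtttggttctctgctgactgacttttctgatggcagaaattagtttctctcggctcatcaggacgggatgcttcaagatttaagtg

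The feedback inhibitors, 11 genes, 10 of them at or above the median level, had a median difference of 0.02. In all 3 experiments 3 were higher (27.3%) and 2 lower (18.2%). These shares lay near those of all symbols at or above the median level, 23.3% and 21.6%. Among the phosphatases that strip ERK of its activating phosphates, Dusp7, a cytoplasmic one, was at 2407, 2924 and 3180 in controls 18, 19 and 20 and at 2020, 2080 and 2256 in deleted samples. Every deleted sample lay below every control. The differences were -0.25, -0.49 and -0.50, and the mean of -0.41 ± 0.12 was a 1.33-fold lower signal (adjusted p = 0.825, or 0.155 with the experiment as a block). Dusp4, a nuclear phosphatase, was at 1088, 768 and 1452 in controls and at 1190.0, 833 and 3203 in deleted samples. Its mean difference of 0.46 ± 0.54 (adjusted p = 0.951) rested on experiment 20, where the signal was 2.21-fold higher, against 0.13 and 0.12 in the other 2, and the mean was 0.12 without that experiment and -0.10 without its deleted array alone.

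Dusp6, the cytoplasmic ERK phosphatase most often used to read out FGF signalling, was at 4855, 4583 and 5394 in controls 18, 19 and 20 and at 5786, 4127 and 4936 in deleted samples. It was higher in experiment 18 and lower in the other 2, with a mean of -0.01 ± 0.14 (adjusted p = 0.998). Dusp5, a nuclear phosphatase that is specific to ERK, was higher in all 3 by 0.21, 0.14 and 0.15, with a mean of 0.17 ± 0.19 (adjusted p = 0.948). By sign over the 3 experiments Dusp7 was lower, Dusp4 and Dusp5 were higher, and Dusp6 had no common sign. None of the 4 phosphatases was called, and they were not compared with each other.

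The window around the start of Dusp7, shown as the counterpart of the other 2 genes, is chr9:106368382-106368681 on the plus strand of GRCm38.p6. It held the GC box 1 time and GGAA 0 times, and 41 CG dinucleotides, where the window of Fgf4 held 28, those of Etv1 12 and 3, and the median of all windows was 7. Of the 47 members 34 had at least 1 window in the table, 43 windows in all, of which 39 held GGAA and 29 the GC box. These matches describe the letters alone.
Dusp7: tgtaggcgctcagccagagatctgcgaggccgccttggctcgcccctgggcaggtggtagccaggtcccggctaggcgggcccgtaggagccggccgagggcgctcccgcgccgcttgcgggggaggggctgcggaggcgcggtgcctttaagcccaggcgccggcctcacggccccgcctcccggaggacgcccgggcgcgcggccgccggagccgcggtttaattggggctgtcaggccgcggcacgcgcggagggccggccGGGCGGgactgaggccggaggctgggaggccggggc

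The Sprouty genes encode inhibitors that act between receptor and RAF. Spry4 was at 509, 501 and 1792 in controls 18, 19 and 20 and at 550.3, 460.5 and 965 in deleted samples. Its difference was small in experiments 18 and 19, by 0.11 and -0.12, and -0.89 in experiment 20 (mean -0.30 ± 0.58, adjusted p = 0.984). Spry2 was at 747, 760 and 1251 in controls and at 1038, 844 and 966 in deleted samples, higher in experiments 18 and 19 and lower in experiment 20 (0.08 ± 0.22, adjusted p = 0.993). Spry1 differed by 0.21, -0.58 and -0.39 (mean -0.25 ± 0.18, adjusted p = 0.900). Spry3 was the 1 Sprouty gene with one sign in all 3. It was dim, at 220, 263 and 266 in controls and at 199, 236 and 169 in deleted samples, with -0.32 ± 0.15 (adjusted p = 0.833), or -0.15 without experiment 20. Of the SPRED genes, whose products hold back the activation of RAF by RAS, Spred1 was higher in all 3 by 0.13, 0.24 and 0.17 (0.18 ± 0.16, adjusted p = 0.931). Spred2 differed by 0.07 ± 0.14 and Spred3 by 0.02 ± 0.46, the latter with 446, 716.5 and 1127 in controls and 468, 694 and 1168 in deleted samples, so that each deleted sample followed the control of its own experiment.

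**Figure D2:**
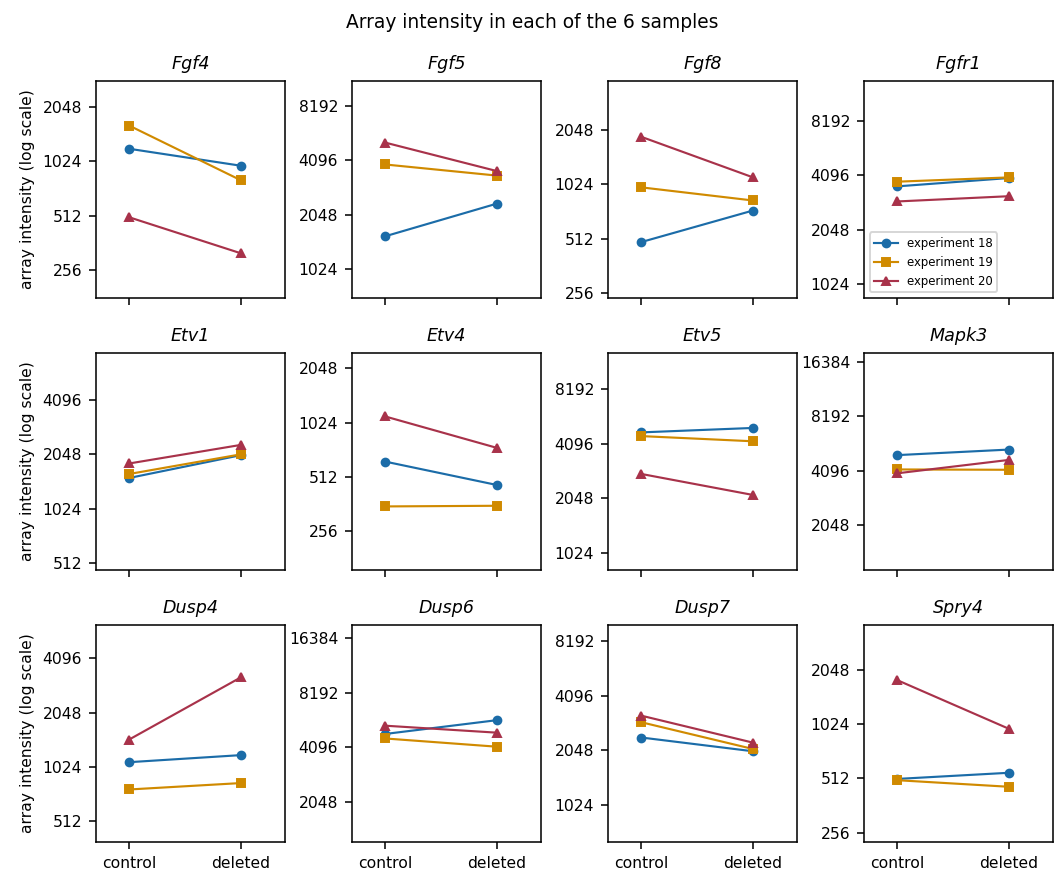
Array intensity on a log scale (vertical axis, each panel spanning the same 16-fold range) in control and deleted samples of 12 of the 47 genes, with a line joining the 2 samples of an experiment. The lines of Fgf4 and Dusp7 all slope down and those of Etv1 all slope up, while in Fgf5, Fgf8, Etv4, Etv5 and Spry4 the experiments lie farther apart than the ends of most lines.

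For most of these genes the controls differed from each other by more than the groups differed in mean. The range over the 3 controls exceeded the mean difference with deletion in 40 of 47 members (85.1%), as in 85.5% of all symbols. Control 20 was above the mean of controls 18 and 19 by 1 log2 unit or more in 5 members, against 2.21% of all symbols. These were Spry4 (1.83, or 3.55-fold), Fgf10 (1.68), Fgf8 (1.43), Etv4 (1.24) and Fgf5 (1.06). It was below by as much in 2, Fgf4 (-1.47) and Fgf11 (-1.06), against 2.25%. Spred3, at 0.99, lay just short of that line. These are differences of 1 array from the mean of 2 and carry no test. They went with the streak and mesendoderm markers given above (9 of 10), of which T was higher in control 20 by 4.51, Mixl1 by 4.19 and Eomes by 2.43, and the part of such cells in the values of Fgf8, Spry4 and the others was not tested. Of the 6 neural markers 1, Fabp7, was higher there by 1 or more, at 3.28, and of the 8 epiblast markers 0 were. The pluripotency genes Pou5f1 and Sox2 differed by 0.13 and 0.46 in the same comparison. In experiment 20, all 5 members with the raised baseline were lower after deletion, with differences from -0.96 to -0.52. Each of these differences holds the same control 20 value that set the baseline. The streak markers as a list were lower there too, with a median of -0.57, against 0.16 and 0.19 in experiments 18 and 19. Of the 10, T, Foxa2, Sox17 and Cer1 (40%) were higher after deletion in all 3, and Mesp1 (10%) was lower. Among symbols at or above the median level these shares were 23.3% and 21.6%. T was higher by 1.54, 2.15 and 0.75 in experiments 18, 19 and 20 (mean 1.48 ± 1.59, limma adjusted p = 0.945). Of the 6 neural markers Fabp7, by 0.74, 0.97 and 0.73, and Nes were higher in all 3 and Neurog2 was lower.

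**Figure D3:**
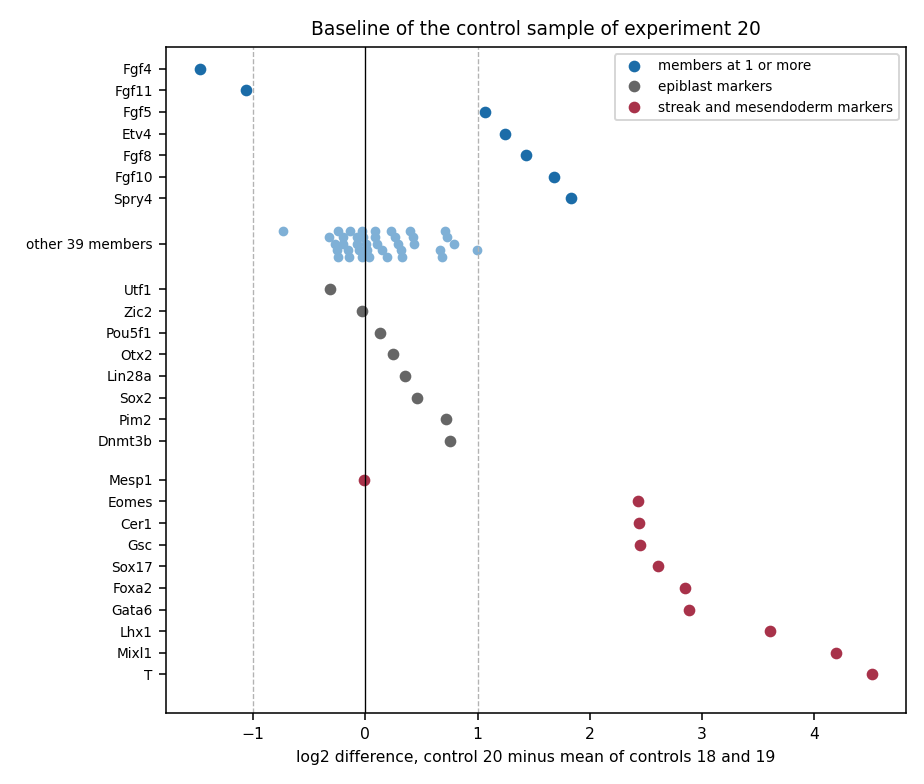
Log2 difference of control 20 from the mean of controls 18 and 19 (horizontal axis) for the members at 1 or more in size, for the other members drawn on 1 spread row, and for the epiblast and streak marker lists. Dashed lines mark 1 and -1. Spry4, at 1.83, is the highest member, and 9 of 10 streak markers lie above 2.4.

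The rest of the route from ligand to nucleus was followed through 4 lists of other genes, of which 0 members were called by limma in either direction. These lists were chosen with earlier results of these data known, so their shares describe the lists and carry no test. Most of these genes lay at or above the median level, so their counts stand beside those of all symbols at that level, of which 23.3% were higher and 21.6% lower in all 3 experiments, with a median difference of 0.0009. Of 26 genes for heparan sulphate synthesis and coreceptors, 21 of them at that level, 8 were higher (30.8%) and 4 lower (15.4%) in all 3 experiments, with a median difference of 0.07. The sulphatase gene Sulf1, whose product trims heparan sulphate, was at 1131, 2661 and 2370 in controls 18, 19 and 20 and at 2355, 3601 and 3578 in deleted samples (0.70 ± 0.37, adjusted p = 0.841). The syndecan gene Sdc3 differed by 0.50 ± 0.24, and the sulphotransferase genes Hs6st2 and Hs2st1 by 0.40 ± 0.44 and 0.32 ± 0.15. Hs6st2 was dim, and its difference was 0.85 in experiment 19 against 0.25 and 0.09 in experiments 18 and 20. All 4 were higher after deletion in every experiment, but one sign in all 3 was a condition of naming them. From each of the 4 lists up to 4 genes were picked, those of one sign with the largest mean differences. Of these 26 genes 14 were of mixed sign.

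Of 16 adaptor, RAS and RAF genes, all at that level, 7 were higher (43.8%) and 3 lower (18.8%) in all 3 experiments, with a median of 0.09. Ptpn11 encodes SHP2, the phosphatase that works with FRS2 and GAB1 to activate RAS, and was at 2242, 2340 and 2495 in controls and at 1671, 1663 and 1796 in deleted samples, without overlap. Its difference of -0.46 ± 0.07 had an adjusted p of 0.825. The others picked for one sign in all 3 were higher. They were the RAS exchange factor gene Sos1 (0.36 ± 0.11), the scaffold gene Gab1 (0.28 ± 0.47) and the adaptor gene Shc1 (0.27 ± 0.09). Gab1 differed by 0.61 in experiment 20, against 0.11 and 0.13 in experiments 18 and 19.

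A list of other inhibitors of the pathway held 17 genes, 16 of them at that level. Of these 17 genes 8 were higher (47.1%) and 2 lower (11.8%) in all 3 experiments, with a median of 0.18. The list held the phosphatase genes Dusp1, Dusp2, Dusp8, Dusp9, Dusp10 and Dusp16, and a preference for ERK was not a condition of it. Dusp10, with a mean of 0.06, was 1 of the 8. Il17rd, which encodes the FGF antagonist SEF, was at 3536, 4099 and 3637 in controls and at 4933, 4794 and 4545 in deleted samples, without overlap (0.34 ± 0.08, adjusted p = 0.825). The others picked for one sign in all 3 were higher as well. They were the RAS regulators Lztr1 (0.34 ± 0.11) and Rasa2 (0.28 ± 0.08) and the ubiquitin ligase gene Cblb (0.27 ± 0.16). Cblb differed by 0.55 in experiment 20, against 0.10 and 0.15 in experiments 18 and 19. Without experiment 20 the median of this list was 0.06, and without experiment 18 it was 0.07. Among 17 ERK-responsive and downstream genes, all at that level, 3 were higher (17.6%) and 2 lower (11.8%) in all 3, with a median of 0.03, and both shares lay below those of all symbols there. Elk4, an ETS partner of serum response factor, was at 550, 597 and 453 in controls and at 815, 930 and 1061 in deleted samples, without overlap (0.81 ± 0.14, adjusted p = 0.825). Of the 3 RSK kinase genes, Rps6ka3 differed by 0.39 ± 0.14, Rps6ka1 by -0.19 ± 0.13 and Rps6ka2, of mixed sign, by -0.16 ± 0.37. The immediate-early gene Ier3 differed by 0.17 ± 0.26, while Egr1, Fos, Junb and Ier2, which respond early to ERK as well, were of mixed sign with means from -0.01 to 0.08.

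**Figure D4:**
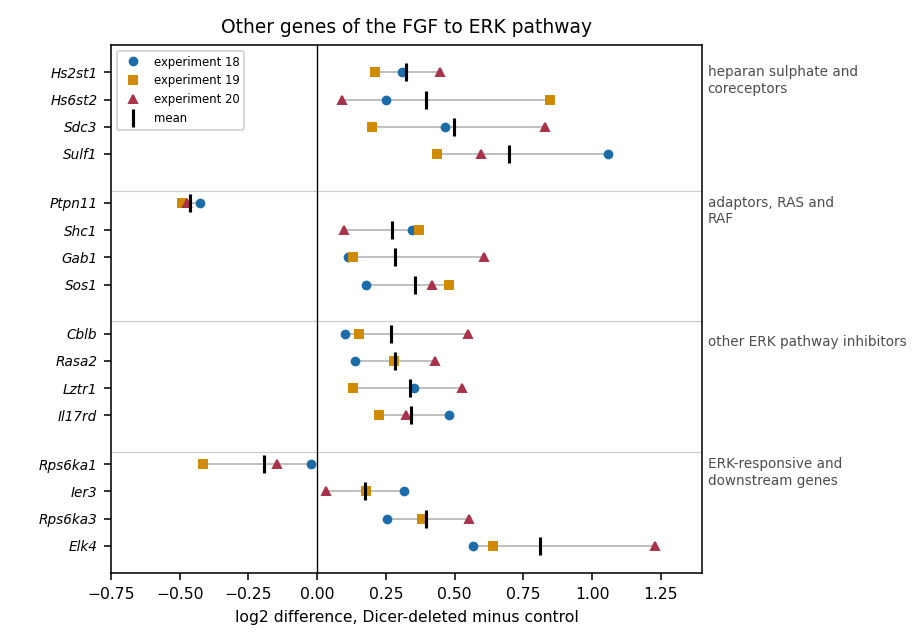
Log2 difference of deleted minus control (horizontal axis) in each experiment for the genes named from the 4 lists, up to 4 per list with one sign in all 3 experiments and the largest mean, with a black bar at the mean. Ptpn11 has its 3 symbols between -0.49 and -0.42, and Elk4 between 0.57 and 1.23.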

How the data were processed

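RNA of 6 samples was measured on Affymetrix MoGene 1.0 ST arrays. RMA and Affymetrix Expression Console 1.2 are named in the submitters' processing notes, and mm9 is the build of the probe set annotation per the file headers. The authors deposited, for each array, a linear intensity and a log2 value from which the probe set's median over the 6 arrays had been subtracted. The 2 forms matched to within 2.31e-06 after log2 of the intensity, and the deposited series table held the same log2 values (largest difference 0). RMA had normalized the arrays to each other, so a shift common to most genes cannot be seen. No detection calls were used.

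Here log2 of the intensity was used. Of 28856 probe sets, 22439 named 1 symbol, which gave 20200 symbols with 1 probe set each. All 47 member symbols equalled the RefSeq symbol of their Entrez identifier. Promoter windows came from RefSeq (GRCm38.p6). The test was limma (version 3.58.1, R 4.3.3, with group as the only term, Benjamini-Hochberg adjustment over all symbols, threshold 0.05, no filter on level). The code was tested on simulated data. The series design names the experiments as independent and as biological replicates. Nothing says that they used separately derived cells, so p-values measure the spread between these samples, which may be technical.

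Samples of one experiment number are a pair, since per the labels' protocols controls were plated and split alongside the treated cells. Across genes, deviations from the group means correlated within experiments 18, 19 and 20 at r = 0.83, 0.61 and 0.80. Members and lists were chosen with earlier results of these data known. Genes given with the value of every array were those with one sign in all 3 experiments and a mean difference of 0.3 or more, those whose control 20 differed by 1 or more, the highest mean level of each role, and 12 well-known genes of the pathway, Fgf2, Fgf4, Fgf5, Fgf8, Fgfr1, Fgfr2, Mapk3, Dusp6, Spry2, Spry4, Etv4 and Etv5. Fgf3, Fgf9, Fgf12, Fgf18, Fgfr4 and Spred3 were added after their values were seen. Of the 47 members 1 counts in all totals but is not reported here on its own. Hras, Fosl1, Elk3 and Tfap2c of the other lists were not among the symbols tested. Python 3.11.15 with matplotlib 3.10.9 drew the figures.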

Additional observations from a re-analysis of the deposited data

Results flagged for a closer look

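A probe set that names 2 genes, Etv1 and Gm5454, was outside the comparison, since members had to name exactly 1 gene. Its signal was above that of the controls in all 3 experiments, as was that of the probe set that names Etv1 alone. Its intensity was 2376, 2163 and 2504 in controls 18, 19 and 20 and 3008, 3149 and 2746 in the deleted samples, a mean log2 difference of 0.34 against 0.37 for the Etv1 probe set. It was not tested, and signals of the 2 genes cannot be told apart on it. With 3 arrays per group no array could be tested for standing apart from the others of its group.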

How the results depend on the processing

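No member was called under any alternative, and the lowest adjusted p of a member was 0.0545, with experiment 20 left out and the experiment as a block. Single samples set many of the signs. Of 19 named members, 6 kept their sign throughout (Fgf4, Etv1, Dusp7, Spry3, Fgfr1 and Mapk3) and 13 did not, in 46 of 374 values. With array weights the mean difference was 0.062 for Fgf10, 0.11 for Fgf15 and 0.046 for Fgf5, and with a repeated quantile normalization 0.022 for Fgf2. With the experiment as a block it was 0.063 for Dusp6, 0.030 for Fgf2 and 0.038 for Fgf5 without experiment 19, and 0.051 for Dusp6, 0.14 for Fgf15 and 0.17 for Fgf8 without experiment 20. When an array or an experiment was left out, with or without the block, the difference ran from -0.10 to 0.87 for Dusp4, from -0.14 to 0.12 for Dusp6, from -0.74 to 0.083 for Etv4, from -0.38 to 0.24 for Etv5, from -0.60 to 0.34 for Fgf10, from -0.76 to 0.15 for Fgf11, from -0.97 to 0.20 for Fgf15, from -0.078 to 0.030 for Fgf2, from -0.55 to 0.31 for Fgf5, from -0.63 to 0.34 for Fgf8, from -0.15 to 0.36 for Fgfr2, from -0.11 to 0.33 for Spry2 and from -0.61 to 0.31 for Spry4. It ran from -1.15 to -0.17 for Fgf4, from 0.31 to 0.45 for Etv1 and from -0.53 to -0.33 for Dusp7. Where 1 array is left out, its partner stays in, so differences between experiments enter these values.

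With the experiment as a replicate block Dicer1 had a difference of -1.74 and an adjusted p of 0.066, with trend and robust settings -1.74 and 0.107, and 0 genes were called lower in either. Leaving out arrays or experiments gave -1.81 to -1.66 for Dicer1, 0 to 315 genes called higher and 0 to 74 lower, the nonzero counts without experiment 20 with the block. Over 2 experiments alone, 11 to 12 members were higher and 14 to 19 lower in both. One sign is easier to keep over fewer experiments, so these counts are larger by construction than those over all experiments. No share of all symbols over 2 experiments is given beside them, so they do not show a shift of the members. The median difference ran, over experiments left out, from -0.10 to -0.0039 for all members, from -0.14 to -0.065 for paracrine ligands, from -0.23 to -0.053 for endocrine ligands, from -0.0094 to 0.083 for receptors, from -0.0088 to 0.047 for docking proteins and kinases, from -0.11 to 0.051 for feedback inhibitors, from 0.061 to 0.11 for adaptors and from 0.059 to 0.20 for other inhibitors. With a repeated quantile normalization it was -0.076 for paracrine and -0.10 for endocrine ligands, and with the mean of all probe sets 0.037 for adaptors. Repeated quantile normalization and centring of the arrays left the median over all symbols at -0.013 and -0.031. The filter on dim probe sets with the block was added after seeing the data. The causes of these shifts were not tested. The number of arrays limits the precision.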

Other observations

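Among the 6 ligand genes and homologues whose controls spanned more than 2-fold, the span after deletion went both ways. It was smaller for Fgf8 (3.83-fold over the controls and 1.53-fold over the deleted samples), Fgf10 (3.65-fold and 1.78-fold) and Fgf5 (3.30-fold and 1.52-fold). It was about the same for Fgf4 (3.22-fold and 3.05-fold), and larger for Fgf15 (3.52-fold and 4.80-fold) and Fgf11 (2.54-fold and 3.54-fold). Outside the ligands and homologues, controls spanned more than 2-fold for Spry4 (3.58-fold, and 2.09-fold after deletion), Etv4 (3.15-fold and 2.09-fold) and Spred3 (2.53-fold and 2.50-fold). These genes were picked for a wide span over the controls, which by itself favours a smaller span after deletion. Without that choice, the range was smaller in deleted samples for 29 of 47 members, 61.7%, against 59% of all symbols.

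For Spred2 and Etv5 a further probe set named the same gene alone. The one of Spred2 differed by -0.04 where the one used differed by 0.07, and that of Etv5 by -0.06 against -0.13, with the lowest values again in experiment 20.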
